A study of Mus musculus with 10 samples.

Results

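The spleen of old mice was set against 4 other tissues of the same animals. Of the 10 arrays of the study, the 2 spleen arrays were compared with the 8 arrays of jejunum, ileum, distal colon and liver, and membership was taken from the tissue label alone. One spleen array held RNA of mice fed yogurt, and the other held RNA of mice on the control diet. The 8 other arrays were jejunum, ileum, distal colon and liver, each once with yogurt and once with the control diet. All mice were male, of the ICR stock, an outbred laboratory line, were housed singly under specific-pathogen-free conditions and were sampled at 28 months of age. From 8 months on they had eaten AIN-93, a purified diet, alone (control) or with 1 to 2% LB81 yogurt. RNA of the 10 yogurt-fed mice or the 9 control mice was pooled in equal amounts for each tissue, and 100 ng of each pool was amplified and hybridized to 1 Affymetrix mouse genome array, which carries 45101 probe sets. The spread between mice was thus averaged out before measurement. An SE or p-value given here measures how a difference between tissues varied between the yogurt and the control pools, not between mice, and the labels do not say how much of the spleen was taken.

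The spleen filters blood and houses a large share of the body's lymphocytes. Its white pulp holds B cell follicles and T cell zones, built by lymphotoxin-dependent stromal cells that secrete chemokines. Its red pulp holds macrophages that take up old red cells and recycle their iron, and in adult mice, unlike most adult humans, the red pulp also makes red cells, platelets and granulocytes. Jejunum, ileum and distal colon are lined by epithelium and carry lymphocytes and plasma cells in their walls, and the liver holds hepatocytes and the Kupffer cells, its own macrophages.

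Values are the deposited log2 expression values, and where several probe sets named the same gene, the brightest on average was used. Array medians lay between 5.42 and 5.50, and values below the array median are treated here as dim. The spleen arrays correlated with each other with a Spearman rho of 0.992 over all probe sets, and with arrays of other tissues with 0.858 to 0.893, lowest with liver. The log2 ratio of 3' over 5' Gapdh signal, a sign of RNA quality, was 1.29 and 1.01 on the spleen arrays (yogurt and control) and 0.05 to 0.98 on the others. The same ratio for actin was 1.09 and 1.01 on the spleen arrays, within the 0.66 to 2.01 of the others. Their part in the differences was not tested. Of the spleen markers looked up to check the label, Cd79a, Cd3e, Spic and Tlx1 were higher in spleen than in every other tissue. Cxcl13 was higher than the mean of the 4 others but matched distal colon, and Cd209b was under the 2-fold threshold. Of the markers of the other tissues, Alb, Ttr, Fabp2, Vil1, Car4 and Muc2 all lay below the array median on both spleen arrays.

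For each gene it was asked whether spleen differed from the mean of the 4 other tissues, and whether it differed from each of them. The limma fit had tissue and diet as terms, and a call needed both a 2-fold difference and a p below 0.05 after Benjamini-Hochberg adjustment. Of 13598 genes tested, 1664 were higher in spleen than the mean of the 4, which is 12.2% of genes tested and 9.15% of the 18193 named genes on the array. 2626 genes were lower (19.3% and 14.4%). Against each tissue in turn, 931 genes were higher in spleen than in all 4 (6.85% of genes tested and 5.12% of all named genes), and 826 were lower than in all 4 (6.07% and 4.54%). This fit takes its error from the 2 diets, and with the spread among the 4 other tissues in the error instead, 1297 genes were higher than the mean and 1166 lower. Of the 206 tested genes named in the text, 45 lost their call against the mean there, among them Mki67, Car1, Cd5l, Stab2, Cxcl13 and Muc2. The median difference over all named genes was -0.01. In bulk tissue, fewer cells of a type and less RNA per cell cannot be told apart, and this holds for every list below.

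The margin, the spleen mean minus the mean of the brightest other tissue, showed how far a gene set spleen apart. Among the 931 genes above every other tissue the median margin was 1.65 on the log2 scale, and 84 had a margin of at least 8-fold. The brightest other tissue was distal colon for 381 of them, jejunum for 264, liver for 223 and ileum for 63. 129 of them were above the array median on the spleen arrays alone and so could be tested only because spleen was high. A further 733 genes were higher than the mean but not than every tissue, and for 78 of these another tissue exceeded spleen: liver for 40, distal colon for 22, jejunum for 11 and ileum for 5. The 2 spleen arrays differed by a median of 0.131 (log2, absolute) over the genes tested, and 12 of the genes above every other tissue differed by at least 2-fold between them.

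**Figure D1:**
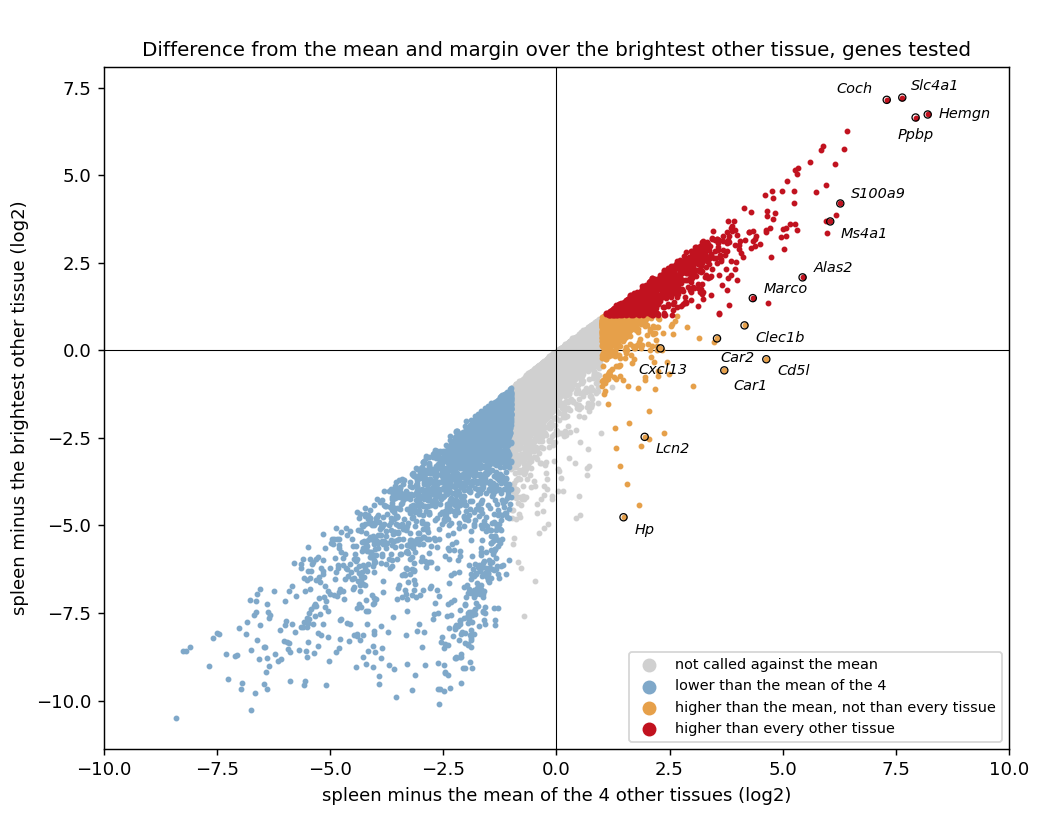
Each point is 1 of the 13598 genes tested, with the spleen mean minus the mean of the 4 other tissues (log2) on the horizontal axis and the spleen mean minus the brightest other tissue (log2) on the vertical axis, coloured by call. Genes such as Slc4a1, Hemgn, Ppbp and Coch lie at the upper right on both axes, while Cd5l, Car1, Lcn2 and Hp were higher than the mean and lie below 0 on the margin.

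The 20 genes with the largest margin are mostly known from red cells, platelets and neutrophils. To keep dim values from inflating a margin, values below the array median were first raised to it, so a margin against a dim tissue is a lower bound. Slc4a1, the band 3 anion exchanger of the red cell membrane, read 12.36 and 12.28 on the yogurt and control spleen arrays, against 4.39 to 5.37 (median 4.60) on the 8 other arrays. The groups were far apart, and every other tissue was dim. Slc4a1 was at least 114-fold above the brightest of them, liver (limma, largest adjusted p of the 4 comparisons 1.37e-10). Of its 3 probe sets, the lowest difference was 0.08 and the highest 8.94.

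Hemgn, a nuclear protein of developing blood cells, read 12.42 and 12.25 in spleen, against 3.40 to 5.66 (median 3.73) elsewhere, and its margin over jejunum was 107-fold. Ppbp, the platelet basic protein, read 12.41 and 12.08 in spleen, against 3.53 to 5.60 (median 3.99), with a margin over liver of 100.5-fold. Coch, cochlin, a secreted protein that follicular dendritic cells of mouse lymphoid organs make, read 11.36 and 11.66 in spleen, against 3.96 to 4.59 (median 4.13), and was at least 64.8-fold higher. In all 3 the lower spleen array lay over 6 log2 units above the highest other array. Their largest adjusted p over the 4 comparisons with limma was 2.19e-10 for Hemgn, 2.66e-11 for Ppbp and 1.64e-10 for Coch. Coch, like Slc4a1, passed the filter through spleen alone. These genes were also picked by their margin, so their p-values are no separate support.

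The other 16 had margins between 16.9-fold and 40.0-fold. They were Camp, Ngp and S100a9 of neutrophils, Tubb1 of platelets, Hs6st2, which sulfates heparan sulfate, Apol11b, an apolipoprotein L, and 10 members of the erythroid list: Rhd, Cldn13, Trim10, Tal1, Hbb-b2, Tmcc2, Klf1, Rhag, Nfe2 and Kel. Of the 20, 10 had a mean below the array median in all 4 other tissues and passed the filter through spleen alone. Liver was the brightest other tissue for 13 of the 20, and the largest adjusted p of any of them against a single tissue was 9.39e-08 (Hbb-b2). The 2 probe sets of Hbb-b2 disagreed in sign, with differences of -0.79 and 5.97, and the lowest of the 4 for Hs6st2 was 0.42. Of the other called genes named here, Ank1, Cxcl12, Ighg3, Ighm, S1pr3, Sparc and Cx3cl1 also had a probe set with a difference of the opposite sign, within 0.38 of 0.

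**Figure D2:**
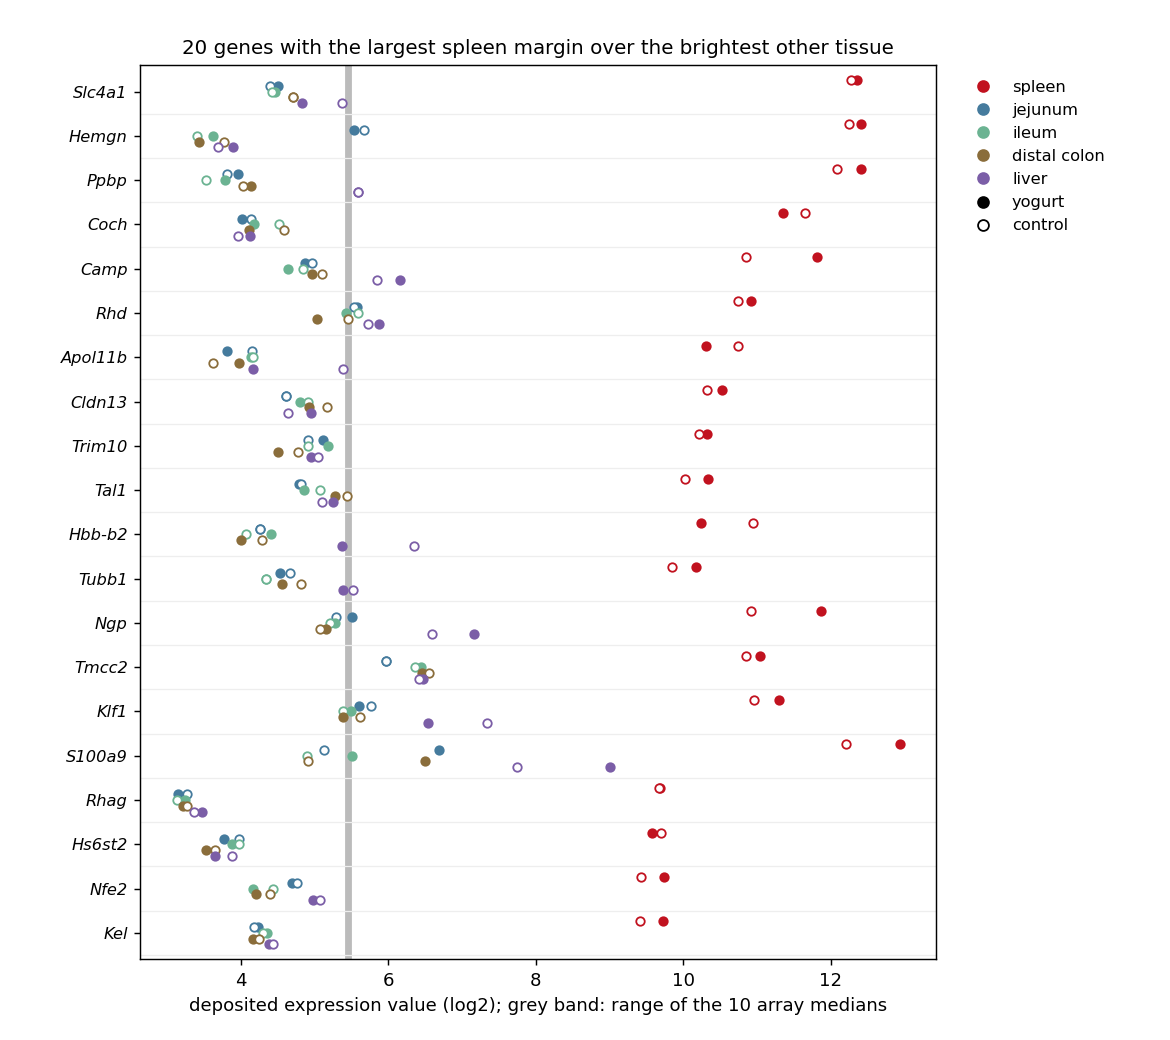
Deposited log2 values of the 20 genes with the largest margin on each of the 10 arrays, with filled points for yogurt and open points for control pools. Every spleen point lies above every other point of its gene, and most other points lie at or below the grey band of array medians (5.42 to 5.50).

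The erythroid list covered membrane and blood group proteins, haem synthesis, iron uptake and transcription factors. Of its 37 members on the array, 32 were higher in spleen than the mean of the 4 other tissues, none was lower, and 27 were higher than in every tissue (beside 9.15%, 14.4% and 5.12% of all named genes). The same shares of all named genes stand beside the counts of every list below. The median difference of the 37 was 3.36, 10 members passed the filter through spleen alone (in the lists below, 7 T cell genes, 5 lymphoid transcription factors, 3 cytotoxic cell genes and at most 2 of any other list), and both spleen arrays lay above all others for 32 (24.5% of all genes tested did).

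Among membrane proteins, Rhag, the Rh-associated glycoprotein, read 9.69 and 9.67 in spleen, against 3.13 to 3.47 (median 3.26). Rhd, of the Rh blood group, read 10.93 and 10.75, against 5.03 to 5.87 (median 5.56), and Kel, the Kell blood group protein, 9.73 and 9.41, against 4.17 to 4.43 (median 4.27). For these 3 both spleen arrays lay above all others. Icam4, a blood group adhesion molecule, differed by 3.76 ± 0.10 (SE of the limma fit, as throughout), and Ank1, ankyrin of the red cell skeleton, by 2.43 ± 0.12. Epb42 and Sptb, also of the membrane skeleton, differed by 2.03 and 1.24 on the brightest probe set, while the other probe set of Epb42 differed by 5.70 and that of Sptb by 0.22.

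Haem synthesis genes were higher too, with narrower margins. Alas2, the erythroid first enzyme of haem synthesis, read 11.62 and 11.75 in spleen and 9.50 and 9.70 in liver (yogurt and control), with 4.92 to 9.70 over the 8 other arrays. Its difference from the mean was 5.44, and its margin over liver only 2.08. Fech, ferrochelatase, differed by 2.67 with a margin of 1.53, and Slc25a37, mitoferrin 1, by 3.36 with a margin of 2.06. Urod and Uros passed against every tissue, with margins of 1.15 and 1.04, whereas Cpox had 1.70 against the mean and only 0.13 against liver. Tfrc, the transferrin receptor, was higher than the mean by 1.43 and exceeded ileum by 0.52.

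Of the transcription factors, Klf1, a regulator of globin genes, read 11.30 and 10.97 in spleen, against 5.38 to 7.34 (median 5.61). Tal1 read 10.34 and 10.02, against 4.79 to 5.44 (median 5.09), and Gata1 8.78 and 8.66, against 4.52 to 5.08 (median 4.80). No array of another tissue came within 3 log2 units of the lower spleen array for these 3. E2f2, a cell cycle factor of red cell precursors, differed by 3.32 ± 0.11 and Epor, the erythropoietin receptor, by 1.90 ± 0.10.

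Globins and carbonic anhydrases were uneven. Hbb-b2, a beta globin, read 10.24 and 10.94 in spleen, against 4.01 to 6.35 (median 4.27). The single probe sets of the alpha globins were dim or nearly so: Hba-a2 read 5.65 and 5.75 in spleen, against 4.75 to 5.28, and was not called, and Hba-a1 was below the array median on all 10 arrays. Probe sets that name several genes were left out. Alpha globin signal on such a probe set would be missed, so these readings do not show that alpha globin was low. Car1, carbonic anhydrase 1 of red cells and colonic epithelium, read 11.57 and 11.39 in spleen and 12.71 and 11.39 in distal colon, so these overlapped, and it was higher than the mean by 3.71 but had a margin of -0.57 against distal colon. Car2, carbonic anhydrase 2, exceeded distal colon by only 0.34.

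Since GATA1 binds a short motif before many erythroid genes, the first promoter listed for each gene was searched on both strands, from 250 bases before the start, for AGATAA. These letters were present in 8 of the 26 erythroid promoters found (30.8%), in 5 of the 16 promoters found for the 20 genes of largest margin (31.2%), and in 7.47% of the promoters of all 14452 named genes on the array that had one. They were also present in 3 of the 11 promoters found for the 12 genes of lowest margin below (27.3%), in 8.74% of promoters of genes above every other tissue and in 8.78% of those below. Of the lists below, megakaryocytes and platelets had them in 3 of 24 promoters (12.5%) and B cells in 1 of 20 (5%). Epithelial junctions and keratins had them in 3 of 17 (17.6%). Rhd, Kel, Trim10 and Tal1 were counted both among the erythroid promoters and among those of the 20 genes of largest margin. A match is a run of letters and not a binding site. Of letters of the GATA type, only AGATAA was searched for. CCACACCC, of the Kruppel-like factor type, was searched for in the same way. It was present in 1 of the 26 erythroid promoters (3.85%) and in 3.54% of those of all named genes. The octamer ATGCAAAT was present in 0 of the 26, beside 1.38% of all named genes. The similar letters tgataa, which the bases shown for Hemgn and Kel hold, were not counted. The 120 bases before the start are shown for 3 erythroid genes that hold AGATAA and for Hemgn, which does not. They are also shown for Hnf4a, a gene lower in spleen than in every other tissue, which holds AGATAA. Sequences are 5' to 3' on the gene's strand, from RefSeq on GRCm38.p6, with the motif in capitals. In Alas2 it lies on the opposite strand and so is read as its reverse complement.
Rhd, chr4:134864416-134864535, + strand: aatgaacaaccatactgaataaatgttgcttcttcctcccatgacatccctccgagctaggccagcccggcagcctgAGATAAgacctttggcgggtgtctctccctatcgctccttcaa
Kel, chr6:41704326-41704445, - strand: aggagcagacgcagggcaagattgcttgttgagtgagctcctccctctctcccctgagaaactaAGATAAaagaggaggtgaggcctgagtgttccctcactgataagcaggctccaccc
Alas2, chrX:150547297-150547416, + strand: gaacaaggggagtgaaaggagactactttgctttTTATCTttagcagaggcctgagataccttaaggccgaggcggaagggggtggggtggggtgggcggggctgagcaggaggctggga
Hemgn, chr4:46404184-46404303, - strand: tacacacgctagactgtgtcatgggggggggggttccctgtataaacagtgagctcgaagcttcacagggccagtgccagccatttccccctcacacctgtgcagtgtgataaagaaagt
Hnf4a, chr2:163506737-163506856, + strand: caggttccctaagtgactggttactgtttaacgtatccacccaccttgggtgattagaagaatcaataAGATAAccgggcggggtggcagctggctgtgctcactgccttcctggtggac
The motif began 43 bases before the start in Rhd, 56 in Kel, 86 in Alas2 and 52 in Hnf4a.

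Platelet and megakaryocyte genes were also higher. Of 29 on the array, 20 were higher than the mean, 1 was lower, and 17 were higher than in every tissue, with a median difference of 2.13. Pf4, platelet factor 4, read 12.30 and 12.02 in spleen, against 7.12 to 8.23 (median 7.36), and Tubb1, the platelet beta tubulin, 10.18 and 9.86, against 4.34 to 5.53 (median 4.62). Neither overlapped with another tissue, although Pf4 was above the array median everywhere.

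The subunits of the platelet adhesion receptors were higher as well. Itga2b and Itgb3, which pair as the fibrinogen receptor, differed by 2.97 ± 0.09 and 2.73 ± 0.10. Gp5 and Gp9 of the von Willebrand factor receptor differed by 3.46 ± 0.12 and 2.87 ± 0.09, and Vwf itself by 1.45 ± 0.08. Gp1bb of the same receptor read 9.77 and 9.39 in spleen but 9.79 and 10.02 in ileum, and so was higher than the mean without being above every tissue. Clec1b, the platelet receptor CLEC-2, which liver sinusoids also carry in mice, exceeded the mean by 4.16 and liver by only 0.71. P2ry1, an ADP receptor of platelets, was the lower member, at -1.24, while P2ry12, the other ADP receptor, was higher by 2.13.

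Neutrophil genes were high in spleen and differed between its 2 arrays. Of 21 on the array, 18 were higher than the mean, none lower, and 15 higher than in every tissue (median difference 2.54). The calprotectin subunit S100a9 read 12.94 and 12.20 in spleen (yogurt and control), against 4.89 to 9.00 elsewhere, and its partner S100a8 13.24 and 12.65, against 5.09 to 9.71 (median 6.61). Camp, cathelicidin, read 11.81 and 10.85, against 4.64 to 6.16 (median 4.97). For all 3 the spleen arrays lay above every other array, and liver came next.

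Enzymes of the primary granules, which form early in neutrophil development, were higher on the yogurt spleen array. Mpo, myeloperoxidase, read 10.57 and 8.89 in spleen (yogurt and control), against 4.24 to 6.01 (median 4.73). Ctsg, cathepsin G, read 9.30 and 7.55, against 4.16 to 5.57 (median 4.43), and Prtn3, proteinase 3, 10.23 and 8.33, against 4.69 to 9.04 (median 5.36). Elane, neutrophil elastase, read 7.48 and 6.18, against 5.27 to 5.81 (median 5.66). Without the yogurt array the difference of Elane was 0.53 and was not called. The yogurt array was the higher in all 4, and Prtn3 of the control spleen did not clear liver. Over the 21 members the yogurt array exceeded the control array by a median of 0.74, and by at least 0.5 in 15, whereas in the erythroid and B cell lists these medians were 0.12 and -0.12. With 1 array per diet this difference has no replicate check. It was not particular to spleen. The log2 of the list's summed values was higher with yogurt in every tissue. It was 15.20 and 14.42 in spleen (yogurt and control), 13.07 and 12.55 in liver and 10.48 and 10.08 in jejunum. In ileum it was 9.97 and 9.81, and in distal colon 10.10 and 9.88. On the gut arrays 11 to 17 of the 21 members were dim. Lcn2, lipocalin 2, which hepatocytes also secrete, was higher than the mean by 1.95 but had a margin of -2.47 against liver.

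Of 15 mast cell and basophil genes, 3 were higher than the mean, 2 were lower and 6 were too dim to test. Of all named genes, 9.15% were higher and 14.4% lower. Cpa3, the mast cell carboxypeptidase, read 7.62 and 6.47 in spleen, against 4.43 to 5.74 (median 4.84). The mucosal mast cell proteases Mcpt1 and Mcpt2 were lower in spleen, with differences of -1.34 and -1.40, and jejunum was the brightest tissue for both. Both were dim in spleen, and with values below the array median raised to it the differences were -0.33 and -0.44 and no longer called.

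Of 23 genes of blood progenitors, 10 were higher than the mean, 3 lower and 6 above every tissue (median 0.89). The share lower was near the 14.4% of all named genes. Those above every tissue were Tal1, Lmo2, Fli1, Gfi1b, Lyl1 and Flt3. Lmo2, a partner of TAL1, read 11.68 and 11.66 in spleen, against 7.40 to 8.41 (median 7.88). Genes that gut epithelium or stroma also use were not higher: Kit read 7.15 and 6.97, against 5.54 to 8.90 (median 7.80), and Cd34 5.99 and 5.93, against 4.93 to 8.11 (median 6.89). Both overlapped with other tissues, and Myb, a factor of immature blood cells, had a difference of 0.74, under the 2-fold threshold.

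Cell cycle genes were higher in spleen, also against the gut. Of 31, 28 were higher than the mean of the 4, none lower, and 20 above every tissue (median 2.18). Mki67, the Ki-67 antigen, read 12.31 and 12.21 in spleen, 10.17 and 10.06 in jejunum, 9.57 and 9.45 in ileum, 9.50 and 9.14 in distal colon and 5.98 and 5.50 in liver. Rrm2, a subunit of ribonucleotide reductase, read 12.06 and 12.01 in spleen, against 7.71 to 8.90 (median 8.18). Jejunum was the brightest other tissue for 30 of the 31, and the median difference from jejunum was 1.07, against 3.82 from liver. Plk1, a mitotic kinase, differed from jejunum by -0.14.

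All 26 B cell genes on the array were higher than the mean of the other tissues, and 24 were above every tissue, with a median difference of 3.91. Ms4a1, the B cell antigen CD20, read 12.39 and 12.28 in spleen, 5.85 and 5.49 in jejunum, 4.83 and 5.27 in ileum, 8.65 and 8.66 in distal colon and 5.96 and 5.55 in liver. Cd79b, of the B cell receptor, read 11.70 and 11.74 in spleen and 8.12 and 8.36 in distal colon, with 5.48 to 8.36 over the 8 other arrays. Distal colon was the second tissue by level in 23 of the 26, and the median margin over the brightest other tissue was 2.88.

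Receptors of B cells had margins of similar size. Cxcr5, the receptor that brings B cells into follicles, differed by 5.08 ± 0.10 with a margin of 3.27. Cr2, complement receptor 2, differed by 5.06 ± 0.09 with a margin of 3.50, and Cd22, an inhibitory lectin, by 4.05 ± 0.07. Ighm, the IgM heavy chain, read 14.26 and 14.35 in spleen, against 9.10 to 12.01 (median 10.45). Its levels did not overlap with the other tissues. The 2 members not above every tissue were Blnk, a B cell adaptor, which differed from distal colon by 0.14, and Pax5, the B lineage factor, with a low level of 6.29 and 6.02 and a margin of 0.87.

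Germinal centre and plasma cell genes separated spleen less. Of 14 marginal zone and germinal centre genes, Dtx1 and S1pr3 were called, both above every tissue, and the median was 0.52. Dtx1, a target of Notch signals in marginal zone B cells, read 9.79 and 9.32 in spleen, against 6.67 to 7.45 (median 7.29). Rgs13, a germinal centre gene, read 4.49 and 8.56 on the yogurt and control spleen arrays, so 1 spleen array was dim and the other well above the array median, and it was not called. Without the yogurt spleen array its difference was 3.47, and without the control spleen array it had the opposite sign.

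Of 17 plasma cell and immunoglobulin genes, 8 were higher than the mean, 1 lower and 6 above every tissue (median 0.80). Ighg3, an IgG heavy chain, read 12.11 and 11.56 in spleen, against 5.82 to 9.26 (median 6.53). Igha, the IgA heavy chain, read 12.78 and 13.22 in spleen and 14.41 and 14.40 in jejunum. Jchain, which joins IgA and IgM into polymers, read 12.81 and 13.11 in spleen and 13.43 and 13.36 in jejunum. Spleen was above jejunum for Ighg3 and below it for Igha and Jchain, and against the 3 gut segments alone the difference of Jchain was -0.02 and that of Igha -1.08. Heavy chain genes are similar in sequence, and their probe sets may bind more than 1 of them. Jejunum was the brightest other tissue for 11 of the 17, and Sdc1, the plasma cell and epithelial marker CD138, was lower in spleen than in every tissue, with a difference of -2.06.

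T cell genes were higher with little difference between the other tissues. Of 26, 20 were higher than the mean and all of these were above every tissue, with a median difference of 2.15 and medians of 2.00 to 2.42 against single tissues. Of the 26, 7 passed the filter through spleen alone. Cd3d, a chain of the T cell receptor complex, read 10.09 and 10.06 in spleen, against 5.84 to 7.30 (median 6.56). Cd2 read 9.30 and 9.27, against 4.34 to 6.15 (median 4.55), and Il7r, the receptor for interleukin 7, 10.15 and 10.12, against 5.42 to 8.27 (median 7.87). None of the 3 overlapped. Cd8b1 differed by 2.90 ± 0.12 and Cd4 by 0.83 ± 0.09, which is under the 2-fold threshold. Foxp3 of regulatory T cells was dim on both spleen arrays, at 4.38 and 4.64, and was not tested.

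Of 19 genes of cytotoxic and natural killer cells, 13 were higher than the mean and 10 above every tissue (median 1.64). Gzmk, granzyme K, read 8.91 and 8.61 in spleen, against 4.39 to 6.43 (median 4.92), and Ccl5, a chemokine of activated T cells, 11.92 and 11.89, against 7.63 to 9.31 (median 8.02). Gzma, a granzyme of gut intraepithelial lymphocytes too, read 7.44 and 6.99 in spleen and 10.42 and 10.32 in jejunum. Gzmb, granzyme B, read 6.81 and 7.11 in spleen and 8.42 and 8.09 in jejunum, so jejunum was above spleen in both.

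All 10 genes of antigen presentation by MHC class II were higher than the mean, with 6 above every tissue and a median of 2.13. H2-Ob, a chain of H2-O, which B cells use, read 10.98 and 11.21 in spleen, against 4.24 to 7.70 (median 5.50). H2-Aa, an alpha chain that presents peptides, read 13.09 and 13.20 in spleen and 12.29 and 12.09 in ileum, and exceeded it by 0.95. Cd74, the invariant chain, exceeded ileum by 0.37. The median difference was 3.62 from liver and 1.18 from ileum.

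Of 18 dendritic cell genes, 9 were higher than the mean and 5 above every tissue (median 0.94). Those 5 were Ccr7, Irf8, Flt3, Xcr1 and Siglech. With dim values raised to the array median, Xcr1 differed from the mean by 0.87, under the 2-fold threshold. With values raised to the 65th percentile of each array, Flt3 (0.95) and Siglech (0.24) also fell under it. Ccr7, the receptor that leads dendritic and T cells to T zones, read 7.90 and 8.21 in spleen, against 4.48 to 5.62 (median 4.67). Itgax, which codes for CD11c, was higher than the mean by 1.03 and close to jejunum at 0.19.

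Macrophage genes were higher in spleen than in gut, with liver close behind. Of 24 genes of red pulp macrophages and iron recycling, 19 were higher than the mean, 1 lower and 9 above every tissue (median 1.62). Liver was the brightest other tissue for 16, and the median difference from liver was 0.87, against 2.03 from jejunum. Spic, the factor that red pulp macrophages need to form, read 9.26 and 9.49 in spleen, 6.14 and 5.63 in liver and 4.02 to 6.14 over all 8 other arrays. Hmox1, haem oxygenase 1, read 10.07 and 10.14 in spleen and 7.93 and 8.27 in liver, and Vcam1, an adhesion molecule of macrophages and stroma, read 12.44 and 12.49 in spleen and 8.76 and 8.89 in liver. All 3 were above liver on both arrays.

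Other steps of iron recycling had narrow margins. Blvrb, biliverdin reductase B, differed by 2.54 from the mean and by 0.74 from liver. Slc40a1, ferroportin, which exports iron from macrophages and enterocytes, read 12.01 and 12.16 in spleen and 11.80 and 11.98 in jejunum, with a margin of 0.19. Fth1, ferritin heavy chain, had a difference of -0.30, under the threshold. Hpgd, which breaks down prostaglandins, was the lower member, with a difference of -1.18.

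Of 11 genes of marginal zone macrophages, 5 were higher than the mean and 3 above every tissue (median 0.84). Cd5l, secreted by tissue macrophages, read 10.70 and 10.91 in spleen and 11.09 and 11.03 in liver, and 4.53 and 4.52 in jejunum. Spleen and liver both stood over 6 log2 units above the gut, with liver slightly higher. Marco, a scavenger receptor, read 9.91 and 10.01 in spleen and 8.66 and 8.27 in liver, and Timd4, a receptor for dying cells, read 9.26 and 9.55 in spleen and 7.30 and 7.19 in liver. Cd209b, the mouse lectin SIGN-R1 of the marginal zone, differed by 0.84 ± 0.14 and Siglec1, the marker of metallophilic macrophages, by 0.26 ± 0.11, neither past the 2-fold threshold.

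**Figure D3:**
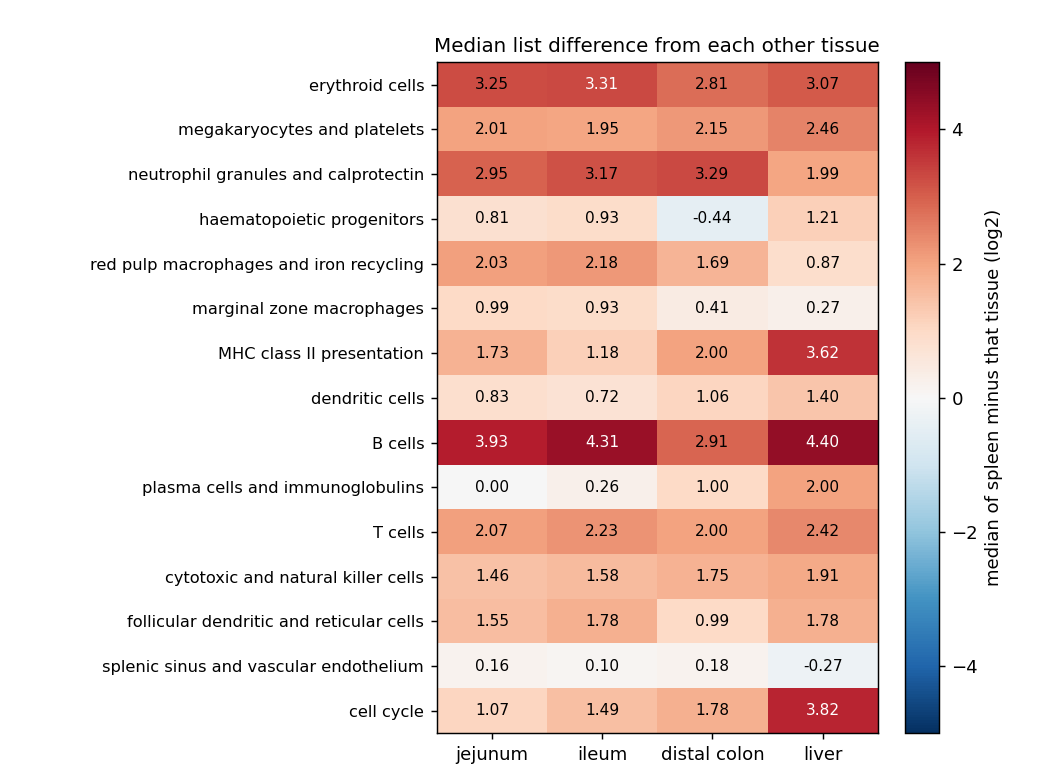
Median over the members on the array of spleen minus each other tissue (log2), for 15 lists of blood, immune, stromal and dividing cells. The smallest median for B cells stands under distal colon (2.91), for macrophages of the red pulp under liver (0.87), and for the cell cycle under jejunum (1.07).

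Of 29 lymphoid transcription factors, 21 were higher than the mean, none lower and 16 above every tissue (median 2.14), and 5 passed the filter through spleen alone. Ikzf1, Ikaros, read 11.24 and 11.19 in spleen, against 6.92 to 7.74 (median 7.39), and Ebf1, an early B cell factor, 9.38 and 9.83, against 3.79 to 6.72 (median 5.34). Ets1 read 11.88 and 11.95, against 8.54 to 9.56 (median 9.20). The spleen arrays lay above every other array for all 3. Relb, of the pathway that lymphotoxin activates, did not differ past the threshold, at 0.19 ± 0.07.

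Among 23 lymphoid chemokines and receptors, 12 were higher than the mean, 4 lower and 7 above every tissue (median 1.26). The receptors Cxcr5, Cxcr4, Ccr7, Ccr6 and Gpr183 and S1pr4 and Xcr1 made up the 7. The call of Xcr1 against the mean was lost with dim values raised to the array median. Cxcl13, the ligand of CXCR5 made in follicles, read 11.60 and 11.76 in spleen and 11.56 and 11.69 in distal colon, 8.51 and 8.30 in jejunum, 8.40 and 8.31 in ileum and 9.80 and 8.47 in liver. Spleen and distal colon overlapped and both lay above the rest. Cxcl12, which holds blood cells in their niches, exceeded liver by 0.89. The epithelial chemokines Ccl20, Ccl25, Ccl28 and Cx3cl1 were lower in spleen, with differences of -1.37, -4.22, -3.19 and -1.70. Ccl25 was below every tissue, and its receptor Ccr9 was higher in spleen than the mean by 1.36. The call of Ccr9 was lost with dim values raised to the array median (0.89) and without liver (0.74).

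Lymphotoxin and BAFF are cytokines that shape follicles and keep B cells alive. Of the 18 genes of these pathways, 7 were higher than the mean, 2 lower and 6 above every tissue (median 0.79). Ltb, lymphotoxin beta, read 11.66 and 11.50 in spleen, against 6.47 to 8.84 (median 7.32). Ltbr, its receptor, read 7.14 and 7.09, against 8.85 to 9.92 (median 9.20). Spleen was above all other arrays for the ligand and below all of them for the receptor. Tnfrsf13c, the BAFF receptor of B cells, differed by 4.38 ± 0.11, while BAFF itself, Tnfsf13b, differed by 0.49 ± 0.13 and was not called.

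Stromal genes of the white pulp gave a mixed picture. Of 17 genes of follicular dendritic and reticular cells, 10 were higher than the mean, 2 lower and 5 above every tissue (median 1.20). Coch, Cr2, Vcam1, Fcer2a and Icam1 were the 5. Mfge8, which marks dying cells for uptake, differed by 1.97 with a margin over distal colon of 0.99, and Clu, clusterin, was exceeded by liver (-0.82). Pdpn, podoplanin, was lower, with a difference of -1.31.

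Of 14 transcription factors of spleen mesenchyme, 3 were higher than the mean and 1 lower, beside 9.15% and 14.4% of all named genes. Tlx1, without which the mouse spleen does not form, read 6.72 and 6.80 in spleen, against 4.83 to 5.26 (median 5.18). Wt1 read 6.30 and 6.50, against 3.80 to 4.76 (median 4.18), and was dim outside spleen. Nkx2-3, which spleen and gut mesenchyme share, had a difference of 0.04 and was not called. Foxf1, a factor of gut mesenchyme, was below every tissue, with a difference of -2.13 from the mean. The list's median was 0.07.

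Most endothelial genes on the array (18) were not called or not tested. Of 25, 4 were higher than the mean, 3 lower and 3 above every tissue, beside 9.15%, 14.4% and 5.12% of all named genes (median -0.01). Stab2, a scavenger receptor of sinus endothelium, read 9.33 and 9.41 in spleen, 8.99 and 9.26 in liver and 4.75 and 4.72 in jejunum. Spleen and liver were nearly level and both far above the gut. Lyve1, of lymphatic and liver sinus endothelium, was below every tissue, with a difference of -2.80 from the mean, and Kdr, a VEGF receptor, was not called (0.16). Of 11 genes of lymph nodes and gut lymphatics, 1 was higher and 5 lower (median -0.80).

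Of interferon-stimulated genes, more were higher in spleen than lower, and the share lower was near that of all named genes. Of 22, 9 were higher than the mean, 3 lower, 7 above every tissue and 1 below, with a median of 0.58. The shares of all named genes were 9.15%, 14.4%, 5.12% and 4.54%. Rsad2, viperin, read 12.34 and 12.32 in spleen, against 7.31 to 9.09 (median 7.81). Oasl1, a sensor that restrains IRF7 in mice, read 5.96 and 5.99, against 7.17 to 8.66 (median 8.07). The groups did not overlap in either, in opposite directions. Ifit1, which binds viral RNA, was lower, with a difference of -1.11, and Irf7 and Mx2 were not called. Of 11 markers of senescence and ageing, 2 were higher and 2 lower (median 0.28), beside 9.15% and 14.4% of all named genes. Cdkn1a, the cell cycle inhibitor p21, was below every tissue with a difference of -2.44, and Cdkn2a, which codes for the inhibitor p16, was dim in spleen, at 4.68 and 4.31, and was not tested.

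**Figure D4:**
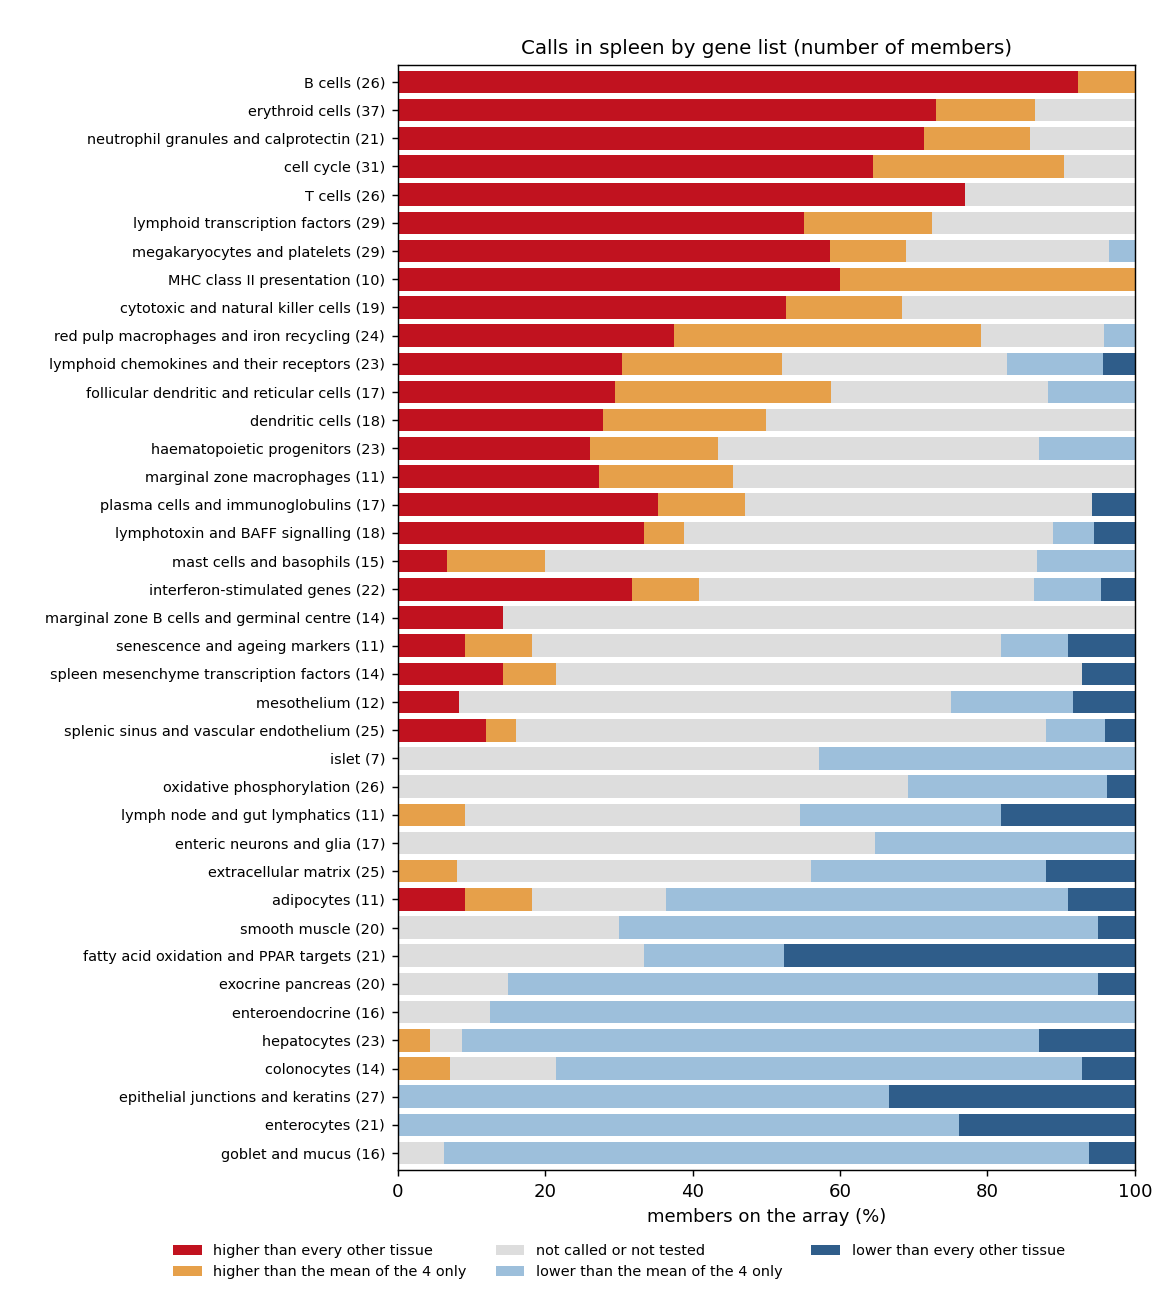
Share of the members on the array (%, number of members in brackets) of each of the 39 lists by call, ordered by the median difference from the mean of the 4 other tissues. B cell and erythroid lists stand at the top with 24 of 26 and 27 of 37 members above every tissue, and epithelial, enterocyte and goblet cell lists at the bottom with no member higher.

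Among genes lower than in every other tissue, the median margin under the dimmest other tissue was -1.61, and 127 had a margin of at least 8-fold. Both spleen arrays were dim for 305 of the 826. The dimmest other tissue was liver for 292, distal colon for 225, jejunum for 188 and ileum for 121.

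Pigr, the receptor that carries IgA across epithelium, read 4.76 and 4.83 in spleen, against 12.47 to 13.40 (median 13.03), and was at least 132-fold lower than in liver, the dimmest other tissue. Krt8 and Krt18, paired keratins of simple epithelia, are both used by gut and liver. Krt8 read 5.82 and 5.47 in spleen, against 11.59 to 13.75 (median 13.52), and Krt18 4.81 and 4.72, against 11.09 to 11.83 (median 11.37). Hnf4a, a nuclear receptor of liver and gut, read 6.66 and 6.16 in spleen, against 11.65 to 12.04 (median 11.94). The groups were at least 4 log2 units apart in all 4 genes, and their largest adjusted p over the 4 comparisons was 2.18e-10 (limma, Hnf4a).

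On the same scale the other 8 of the 12 lowest were 25.3-fold (Adh1) to 74.8-fold (Ugt2b34) lower than in the dimmest other tissue. They were Ugt2b34, Sult1d1 and Adh1, which conjugate or oxidize small molecules, Dsp and Perp of desmosomes, Cldn2 of tight junctions, Tmem30b, a subunit of lipid flippases, and Rnf128, a ubiquitin ligase. All probe sets of the 12 genes were lower in spleen, with the smallest differences among them -0.80 for Dsp and Hnf4a.

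**Figure D5:**
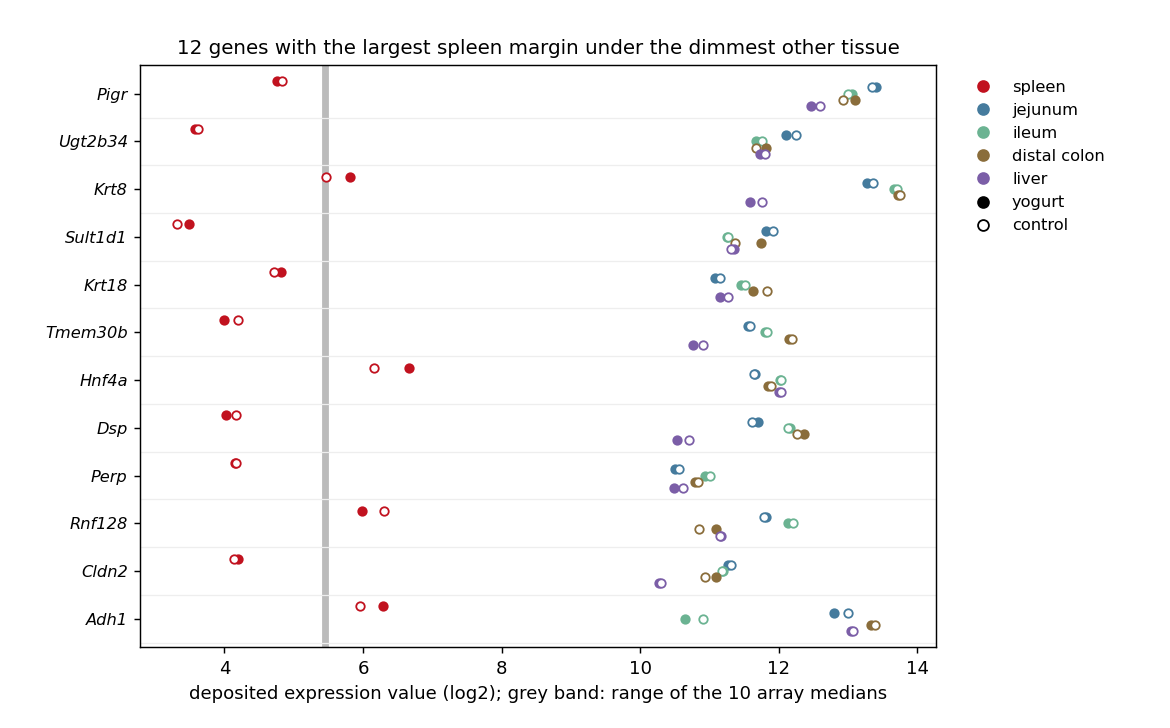
Deposited log2 values of the 12 genes with the largest margin under the dimmest other tissue on each of the 10 arrays, with filled points for yogurt and open points for control pools. The spleen points run from 3.31 (Sult1d1) to 6.66 (Hnf4a), on both sides of the grey band of array medians, and all other points lie above 10, the lowest being those of Cldn2 in liver.

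The epithelial lists gave the widest differences downward. All 27 genes of epithelial junctions and keratins were lower than the mean of the 4 others, 9 of them below every tissue, beside 14.4% and 4.54% of all named genes. Their median difference was -4.11. Against single gut segments the median lay between -5.75 and -5.43, but against liver it was only -0.38. There 5 members were higher in spleen and 9 lower. Epcam, an epithelial adhesion molecule, read 6.85 and 7.38 in spleen, 6.42 and 5.83 in liver and 13.29 and 13.35 in ileum, so spleen was slightly above liver and far below ileum. Cdh1, E-cadherin, read 4.26 and 4.62, against 8.78 to 11.99 (median 11.69), and was below every tissue. Of 21 enterocyte genes all were lower, with a median of -4.59. Fabp2, the intestinal fatty acid binding protein, read 3.31 and 3.43 in spleen, against 8.76 to 13.88 (median 11.81).

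Of 16 goblet cell genes 15 were lower (median -4.79), of 14 colonocyte genes 11 (median -3.22) and of 16 enteroendocrine genes 14 (median -2.31). Muc2, the main gut mucin, read 4.53 and 4.37 in spleen, against 4.62 to 13.12 (median 12.36). Liver was close to spleen in these lists, with median differences of spleen from liver of -0.12, -0.33 and 0.03. Car1 was the one colonocyte gene higher in spleen.

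Of 23 hepatocyte genes, 21 were lower than the mean and 1, Hp, was higher (median -2.34). Against liver the median difference was -8.68, and against the 3 gut segments between -0.12 and 0.15. Alb, albumin, read 5.32 and 4.97 in spleen and 14.36 and 14.32 in liver. Hp, haptoglobin, which binds free haemoglobin and is also made by developing granulocytes, read 9.73 and 8.72 in spleen (yogurt and control), 14.04 and 13.94 in liver and 5.80 and 5.50 in jejunum. Spleen lay between liver and gut, and its yogurt array was the higher, as in the neutrophil list.

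Muscle, nerve and matrix genes were lower in part. Of 20 smooth muscle genes, 14 were lower than the mean (median -1.32), with a median of -2.45 against distal colon and 0.77 against liver. Myh11, smooth muscle myosin, read 6.49 and 6.65 in spleen, 11.42 and 11.66 in distal colon and 4.85 and 4.97 in liver. Of 17 genes of enteric neurons and glia, 6 were lower (median -0.80). Vip, a neuropeptide of gut nerves, differed by -4.01.

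Of 25 matrix genes, 11 were lower and 2 higher (median -0.92). The 2 were Bgn, biglycan, at 1.19 ± 0.05, and Sparc, osteonectin, at 1.03 ± 0.07. Lum, lumican, read 4.78 and 5.09 in spleen, against 7.47 to 9.68 (median 9.06), and Dcn, decorin, 9.65 and 9.98, against 10.99 to 12.48 (median 11.90). Spleen was below all other arrays for both, while Bgn, of the same family of small proteoglycans, was higher.

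Metabolic genes were lower in spleen by smaller amounts. Of 26 genes of oxidative phosphorylation, 8 were lower past the 2-fold threshold and none higher (median -0.75), and both spleen arrays lay below all others for 25 of the 26 (23% of all genes tested did). Sdhb, of succinate dehydrogenase, read 10.78 and 10.80 in spleen, against 11.63 to 12.22 (median 11.85). Cox7a1, the muscle-type subunit of cytochrome oxidase, had the widest difference, -4.67.

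Of 21 genes of fatty acid oxidation, 14 were lower than the mean and 10 of these below every tissue (median -1.57). Cpt2, which readies fatty acids for oxidation in mitochondria, read 7.98 and 8.04 in spleen, against 9.58 to 10.67 (median 10.46). Acaa2, the last enzyme of the cycle, read 9.30 and 9.20, against 10.50 to 12.47 (median 11.51), and Ehhadh, of peroxisomes, 5.35 and 6.03, against 8.38 to 11.35 (median 10.19). In all 3 both spleen arrays lay below the rest. Hadhb and Acadl were not called, at -0.40 and -0.41.

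Tissue that can come along with a dissected spleen was looked for with 4 lists. Of 20 exocrine pancreas genes none was higher in spleen and 17 were lower (median -1.90), and the log2 of their summed values was 10.01 and 9.91 in spleen, below all 8 other arrays. The highest were the jejunum arrays, at 16.81 and 15.68 (yogurt and control), where Cpa1, a pancreatic carboxypeptidase, read 13.05 and 11.57. Cpa1 read 4.96 and 5.05 in spleen. Of 7 islet genes none was higher and 3 were lower (median -0.08), and Ins2, insulin, read 6.39 and 6.02 in spleen, against 5.70 to 7.91 (median 5.97). Of 12 mesothelial genes Wt1 alone was higher and 3 were lower (median 0.04). Upk3b, uroplakin 3b, read 5.80 and 5.29 in spleen and Msln, mesothelin, 4.96 and 5.16.

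Of 11 adipocyte genes, Cd36 and Lpl were higher and 7 were lower (median -1.19). Adipoq, adiponectin, the fat cell hormone, was dim on both spleen arrays at 3.75 and 3.78. Cd36, a scavenger receptor that macrophages and sinus endothelium also carry, read 10.69 and 10.81 in spleen, against 7.93 to 9.35 (median 8.64). Lpl, lipoprotein lipase, was close to liver, with a margin of -0.07.

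Some genes that liver and spleen shared were outside these lists, and the following were chosen after their values were seen. Clec4g, a lectin of sinus endothelium, read 8.24 and 8.21 in spleen, 10.76 and 10.78 in liver and 4.66 and 4.67 in jejunum. F5, coagulation factor V, read 8.64 and 8.33 in spleen, 11.73 and 11.82 in liver and 4.59 and 4.41 in ileum. In both liver was the highest tissue and spleen came next. Scd1, stearoyl-CoA desaturase, read 11.82 and 11.69 in spleen and 14.02 and 13.91 in liver, with jejunum lowest at 7.46 and 7.08.

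Genes called in spleen were then placed along the chromosomes. The 13574 genes tested that RefSeq places on a chromosome were put in order, and 210 of the 931 genes above every tissue had another such gene as the next tested gene on one side or the other (22.6%). Of all placed genes, called or not, 12.8% had a gene above every tissue on one side or the other, and 6.86% were above every tissue themselves. For genes below every tissue the share was 167 of 825 (20.2%), beside 11.6% of all placed genes. The longest runs above every tissue, picked after their values were seen, were 7 neighbours of the SLAM receptor region on chromosome 1 (Cd244a, Ly9, Slamf7, Cd48, Slamf1, Cd84 and Slamf6), 6 Gimap genes on chromosome 6 and 3 runs of 5 neighbours: genes of antigen processing on chromosome 17 (H2-DMa, H2-DMb2, Psmb9, Tap1 and Psmb8), Ms4a genes with Gm8369 on chromosome 19 and Clec4 lectin genes on chromosome 6. Below every tissue, the longest were 5 Gstm genes on chromosome 3 and 5 Ces1 genes on chromosome 8. Neighbours within such families are similar in sequence, and probe sets can bind more than 1 of them.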

How the data were processed

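Pooled RNA of 5 tissues and 2 diets was measured on 10 Affymetrix arrays, 1 per tissue and diet. The authors deposited log2 expression values for 45101 probe sets. MAS5 and affy are named in the submitters' processing notes without version or role, and the summary method and scaling target remain unknown here. Probe sets were named through the platform annotation: 34945 had 1 gene symbol, 932 several, and 9160 none, beside 64 control probe sets. The brightest probe set on average stood for each of 18193 genes. Genes above the array median on at least 2 arrays (13598) were fitted with limma 3.58.1 in R 4.3.3 with 1 term per tissue and diet as block, and empirical Bayes with a trend (4 residual degrees of freedom). Spleen was contrasted with the mean of the 4 other tissues and with each of them. p-values were adjusted over all genes tested, at 0.05 and 2-fold. Values have no counts behind them, and the precision is limited by the number of arrays.

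Genes named in the text are the 20 with the largest margin over the brightest other tissue and the 12 with the largest margin under the dimmest, and members of 39 lists (805 symbols, 716 on the array, 666 tested). Other genes are said to be chosen after their values were seen. The members and lists were chosen with earlier results of these data known. The fit was tested on simulated data. Alternatives covered a floor on dim values, a pseudocount of 16, quantile normalization, the filter, the probe set rule, the model, and leaving out single arrays or liver. Promoters and gene positions are from RefSeq (GRCm38.p6). The 2 spleen arrays, which differ in diet, were compared by values only, with no test. Apart from the values given above, other diet comparisons and the spread between mice were not analysed here.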

Additional observations from a re-analysis of the deposited data

How the results depend on the processing

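With 1 array per tissue and diet, a dim value on an array limits how low a level can be read. Raising values below the 65th percentile of each array to it left 528 genes below every other tissue, in place of 826, and left 52 genes at least 8-fold over the brightest other tissue, in place of 84. Genes at least 8-fold under the dimmest other tissue numbered 127, against 82 with a floor at the 50th percentile and 39 at the 65th. Without liver, 1675 genes were below every remaining tissue and 389 of them at least 8-fold. With spleen or not as the groups, 1166 genes were lower than the mean. Fewer tissues to pass, or their spread in the error, are part of how these settings were built. All other alternatives for the counts stayed within 1.5 times. Leaving out single arrays, 876 to 930 of the 931 genes above every tissue and 760 to 825 of the 826 below kept their calls, and with the mean over probe sets 722 of 896 and 633 of 816 did. Differences changed sign with the floor at the 65th percentile for Epb42 (-0.0382) and for Pax5, Wt1 and Xcr1 (each -0.0730), all dim genes in most tissues. The value that Pax5, Wt1 and Xcr1 share is that of the array floors alone, since spleen too was raised to its floor. It is not a reversed expression difference. The sign changed for Hbb-b2 without probe sets ending in x_at or s_at (-0.788), and without liver for Igha (-1.08) and Jchain (-0.0164). Rgs13 had 3.47 without the yogurt and -1.003 without the control spleen array. Of the 206 tested genes named in the text, 45 lost their call against the mean with spleen or not as the groups (adjusted p 0.054 to 0.715, limma, differences unaltered), 23 under the floor at the 65th percentile, 9 under that at the 50th, 8 with the mean over probe sets and 7 with the pseudocount, beside the changes of sign above. Without liver, 8 lost it (Alb, Ccr9, Cd74, Ifit1, Itgax, Plk1, Sparc and Tfrc), and Kit (-1.04) and Cd34 (-1.30) became lower. Ccr9 also lost it under both floors (0.89 and 0.31) and without probe sets ending in x_at or s_at (0.73), as did Mcpt1 (-0.33 and -0.14) and Mcpt2 (-0.44 and -0.24) under both floors. Calls against the mean were also lost without the control spleen array for Itgax, Jchain, Lpl, Plk1, Siglech, Slc40a1 and Sparc, and without the yogurt spleen array for Adipoq, Elane, Ifit1 and Pax5, while Cd209b (1.04) and Gzmb (1.04) passed without it. Itgax and Jchain also lost it without the control array of jejunum or distal colon, Jchain without the control ileum or yogurt liver array, and Lpl without the control distal colon array.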
